A study of Mus musculus with 9 samples.

Results

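The 9 genes described here are Klrg1 and 8 transcription regulators that balance naive-like against effector states of T cells, namely Prdm1, Bach2, Tcf7, Lef1, Id2, Id3, Zeb2 and Eomes. They were taken by symbol from count tables of 23420 rows, all 9 were present, and all 9 were among the 12219 genes that passed a filter on low counts and were tested. RNA was sequenced from regulatory T cells (Tregs) of mouse spleen, which depend on the factor FOXP3 and hold back other immune cells. The groups, of 3 libraries each, were wild-type Tregs sorted as low for ST2 (ST2-low), wild-type Tregs sorted as high for it (ST2-high), and sorted ST2KO Tregs. ST2, encoded by Il1rl1, is the receptor for interleukin-33. The labels give no age, treatment or sorting scheme for these samples, although the series title concerns kidney injury, and they name no split by receptor level for ST2KO, so an effect of the genotype and an effect of which Tregs were collected cannot be told apart. Separate mice are not named either, so p-values cover only the spread among these libraries, part of which may be technical. Fewer cells of a type and less RNA per cell cannot be told apart in such bulk samples.

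Tcf7 encodes TCF1, which together with LEF1 keeps T cells in a naive or memory-like state, and BACH2 restrains effector programmes and limits the differentiation of Tregs. Prdm1 encodes BLIMP-1, a repressor that drives terminal effector differentiation of lymphocytes and is found in effector Tregs. ID2 and ID3 are inhibitors of E proteins, with ID3 typical of naive and memory-like cells and ID2 of effector cells. ZEB2 and EOMES belong to effector and cytotoxic programmes of CD8 T and NK cells, and KLRG1 is an inhibitory receptor of differentiated lymphocytes that binds cadherins. The genes were therefore ordered as a naive-like side (Tcf7, Lef1, Bach2, Id3) and an effector side (Klrg1, Prdm1, Id2, Zeb2, Eomes).

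Total counts ranged from 11659659 to 43406680 per library. Il1rl1 stood at 2.62 ± 0.84 CPM (counts relative to the library total, scaled with TMM factors; mean ± SD, n = 3) in ST2-low, at 494.7 ± 66.0 CPM in ST2-high and at 67.6 ± 14.0 CPM in the libraries labelled ST2KO. The tables give 1 value per gene and no exons, so the knockout label could not be checked with it. Foxp3 was present in all 9 libraries, with means of 461.6 ± 16.3 CPM (ST2-low), 567.7 ± 47.8 CPM (ST2-high) and 430.2 ± 17.6 CPM (ST2KO; n = 3 each). All 6 Treg markers had counts in each group, and their sum was 4621 to 4762 CPM in ST2-low, 5248 to 5538 CPM in ST2-high and 3675 to 3802 CPM in ST2KO, where Ctla4 was 2.54-fold lower than in ST2-low (edgeR adjusted p = 1.49e-19) while Il2ra and Ikzf2 were higher. ST2-high replicate 3 stood apart from its group, with a chi-square per gene of 17.4 and 21.2 against its partners, where no further pair of replicates exceeded 8.64. These values include the ribosomal RNA gene Rn45s, which held 16.7% of the counts in this library and 13.0% and 12.1% in its partners. The part of Rn45s in the chi-square was not measured. Leaving out ST2-high replicate 3 changed no call of the 9 genes in any comparison.

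In the RefSeq promoter table of build GRCm38.p6, 8 of the 9 genes were matched. The 250 bases before the annotated start are shown for both pairs of opposed regulators whose transcripts moved apart, Prdm1 with Bach2 and Id2 with Id3. The table lists 1 start for each of these 4 genes, and any other start is not covered. Capitals mark a match in Prdm1 to TGANTCA, an AP-1 type pattern with a free centre base. That match is TGAATCA, whose centre A differs from the C or G of the AP-1 consensus. Capitals also mark a core of the TCF and LEF motif (CTTTGA, here on the reverse strand) in Bach2. In the Id genes they mark GC boxes (GGGCGG, on the reverse strand in Id2). Each sequence runs 5′ to 3′ on the strand of its gene.
Prdm1, chr10:44458749-44458998, minus strand: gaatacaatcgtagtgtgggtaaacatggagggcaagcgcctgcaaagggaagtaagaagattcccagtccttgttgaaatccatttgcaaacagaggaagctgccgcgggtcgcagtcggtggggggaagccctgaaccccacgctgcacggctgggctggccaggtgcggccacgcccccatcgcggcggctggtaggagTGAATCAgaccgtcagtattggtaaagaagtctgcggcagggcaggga
Bach2, chr4:32417185-32417434, plus strand: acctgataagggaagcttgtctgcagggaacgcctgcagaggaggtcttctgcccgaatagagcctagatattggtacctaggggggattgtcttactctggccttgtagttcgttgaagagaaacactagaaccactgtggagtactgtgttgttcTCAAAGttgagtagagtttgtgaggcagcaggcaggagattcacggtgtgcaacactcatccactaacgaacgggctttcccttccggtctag
Id2, chr12:25096093-25096342, minus strand: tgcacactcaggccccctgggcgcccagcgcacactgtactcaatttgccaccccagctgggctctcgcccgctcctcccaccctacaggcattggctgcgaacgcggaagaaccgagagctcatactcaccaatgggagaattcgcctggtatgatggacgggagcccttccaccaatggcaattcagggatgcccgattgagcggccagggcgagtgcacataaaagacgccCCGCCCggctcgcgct
Id3, chr4:136143572-136143821, plus strand: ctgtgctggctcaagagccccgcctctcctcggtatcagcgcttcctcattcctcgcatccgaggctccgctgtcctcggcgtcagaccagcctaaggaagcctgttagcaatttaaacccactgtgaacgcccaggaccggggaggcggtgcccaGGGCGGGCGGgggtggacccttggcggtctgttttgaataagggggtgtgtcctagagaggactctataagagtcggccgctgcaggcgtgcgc

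The TGANTCA match of Prdm1 began 48 bases before the start. This pattern, with any base at its centre, was held by 6.75% of 32851 windows of the same length on either strand. The TCF and LEF core of Bach2 began 93 bases before the start, in a class of sites held by 13.8% of windows. Id2 held 1 GC box and Id3 held 2 overlapping ones, a motif found in 32.7% of windows. The Id2 window and the Id3 window were alike in composition, each with 62.8% G or C and 18 CpG dinucleotides, against medians of 52.4% and 6 over all windows. E-boxes (CANNTG, in 66.2% of windows) numbered 1 in Id2, 0 in Id3, 2 in Prdm1 and 0 in Bach2. One E-box of Prdm1 was CAGGTG, the form that ZEB proteins bind, which 17.2% of windows held. These matches describe letters and not occupied sites.

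**Figure D1:**
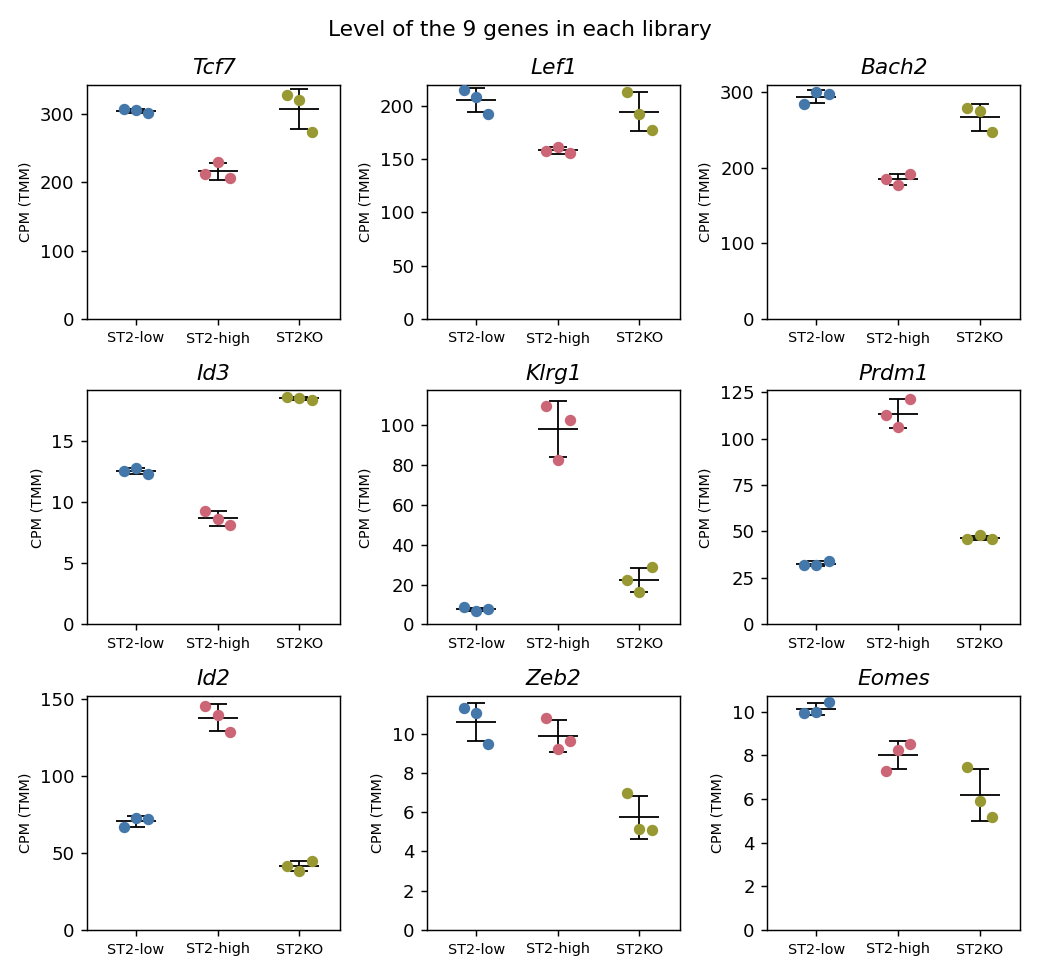
Level of each of the 9 genes in CPM (vertical axes, linear from 0) in the 3 libraries of ST2-low, ST2-high and ST2KO (points), with the mean and SD (bars). The ST2-high libraries are lowest for Tcf7, Lef1, Bach2 and Id3 and highest for Klrg1, Prdm1 and Id2, while the ST2KO libraries are lowest for Id2 and Zeb2 and highest for Id3.

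ST2-high against ST2-low compared wild-type Tregs by their level of the receptor. All 4 genes of the naive-like side fell in ST2-high, by 1.30-fold to 1.60-fold, and 3 of the 5 genes of the effector side rose, Klrg1 12.8-fold, Prdm1 3.47-fold and Id2 1.96-fold. Zeb2 and Eomes did not pass the test. Of all 12219 tested genes, 26.1% were called in this comparison, 15.3% higher and 10.8% lower, at an adjusted p under 0.05 (quasi-likelihood test of edgeR, p-values adjusted by Benjamini-Hochberg over all tested genes, used throughout). The median log2 fold change was -0.51 over the naive-like side and 0.97 over the effector side, beside -0.0024 over all tested genes. A change of 2-fold or more that passed was seen for Klrg1 and Prdm1, and for 3.53% of all tested genes.

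Tcf7 stood at 307.5, 306.3 and 301.5 CPM in the ST2-low libraries and at 211.9, 229.6 and 207.1 CPM in the ST2-high libraries. Every ST2-high library lay below every ST2-low library, and the spread within ST2-low was small (SD of 3.21 CPM, n = 3). The log2 fold change was -0.50 ± 0.06 (SE; edgeR adjusted p = 8.7e-08). Lef1, its close relative, stood at 214.5, 208.2 and 192.6 CPM in ST2-low and at 157.1, 161.3 and 155.5 CPM in ST2-high. The Lef1 groups did not overlap either, a property of 38.1% of all tested genes in this comparison, and the log2 fold change was -0.38 ± 0.06 (edgeR adjusted p = 9.25e-06).

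Bach2 showed the greatest fall of the 9 genes, from 284.1, 301.0 and 298.2 CPM in ST2-low to 184.9, 177.5 and 191.2 CPM in ST2-high. Its log2 fold change was -0.67 ± 0.05 (edgeR adjusted p = 2.78e-11), and 374 was its rank among falls of the 12219 tested genes. B cells are another spleen lymphocyte that uses BACH2, and 8 of 8 of their markers had counts in each group. Their summed level was 92.6 to 141.6 CPM in ST2-low and 106.9 to 136.1 CPM in ST2-high. Cd79b was called higher in ST2-high (21.7 ± 3.03 against 16.9 ± 2.74 CPM, n = 3, edgeR adjusted p = 0.0177), a call that 4 of 19 alternatives ended. The other 7 markers were not called. The part of B cells in the Bach2 value was not tested. Id3 was a gene of low counts, with 232 to 245 per ST2-low library and 123 to 266 per ST2-high library. It stood at 12.5, 12.8 and 12.3 CPM in ST2-low and at 9.28, 8.58 and 8.11 CPM in ST2-high, again with no overlap (log2 fold change -0.53 ± 0.11, edgeR adjusted p = 0.000657).

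On the effector side, Klrg1 stood at 8.48, 6.95 and 7.64 CPM in ST2-low and at 109.4, 82.5 and 102.6 CPM in ST2-high. The lowest ST2-high library was thus far above the highest ST2-low library, and Klrg1 ranked 6 among the rises of all tested genes (log2 fold change 3.68 ± 0.21, edgeR adjusted p = 4.35e-06). KLRG1 also marks NK cells and group 2 innate lymphoid cells (ILC2), which carry ST2. NK cell markers summed to 17.3 to 18.7 CPM in ST2-low and to 12.1 to 13.2 CPM in ST2-high, with Klra4 and Klra8 at 0 in all 9 libraries. The 4 ILC2 markers summed to 2.70 to 3.82 CPM in ST2-low and to 7.83 to 10.8 CPM in ST2-high. Of these, Il17rb was called higher in ST2-high (2.43 ± 0.75 against 8.71 ± 1.14 CPM, n = 3, edgeR adjusted p = 1.55e-08), and Calca was not called (0.746 ± 0.199 against 0.702 ± 0.605 CPM, n = 3). Both cytokine genes were too low to be tested, with Il5 at 0.0184 ± 0.0318 against 0.0193 ± 0.0335 CPM and Il13 at 0.23 ± 0.0598 against 0.243 ± 0.118 CPM. The part of ILC2 in the Klrg1 level was not tested.

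Prdm1 stood at 32.0, 31.9 and 34.2 CPM in ST2-low and at 112.7, 106.3 and 121.4 CPM in ST2-high. Its log2 fold change was 1.79 ± 0.07, and no other gene of the 12219 had a smaller adjusted p in this comparison (edgeR adjusted p = 1.49e-18). Plasma cells also express BLIMP-1, and 5 of 5 plasma cell markers had counts in each group. Their summed level overlapped between ST2-low (83.7 to 132.0 CPM) and ST2-high (79.0 to 122.0 CPM), where Prdm1 did not, and the part of these cells in the Prdm1 value was not tested. Id2 stood at 66.6, 72.7 and 72.3 CPM in ST2-low and at 145.6, 139.6 and 128.6 CPM in ST2-high, a log2 fold change of 0.97 ± 0.06 (edgeR adjusted p = 1.83e-13). Id2 and Id3 thus moved in opposite directions between the wild-type groups.

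Zeb2 stood at 11.3, 11.0 and 9.50 CPM in ST2-low and at 10.8, 9.22 and 9.62 CPM in ST2-high. These groups overlapped, and the log2 fold change of -0.09 had a 95% interval from -0.38 to 0.19 (edgeR adjusted p = 0.69). Eomes stood at 9.94, 9.98 and 10.5 CPM in ST2-low and at 7.29, 8.23 and 8.50 CPM in ST2-high. The Eomes groups did not overlap, yet its log2 fold change of -0.35 ± 0.14 missed the threshold (edgeR adjusted p = 0.0763), and it passed with limma-voom (adjusted p = 0.0479) or a filter of 5 CPM (edgeR adjusted p = 0.0473). NK cell markers, whose sums are given above with Klrg1, were also lower in ST2-high, with Fcer1g and Ncr1 called of 5 tested, and their part in the Eomes value was not tested. Neither Zeb2 nor Eomes was called higher in ST2-high.

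**Figure D2:**
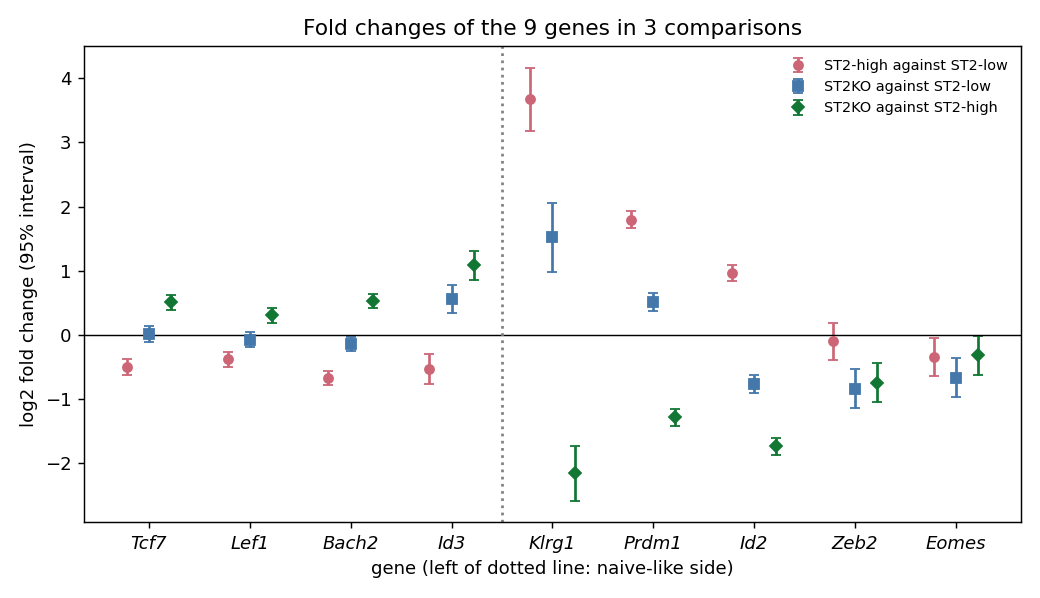
Fold change of each gene on the log2 scale (vertical axis) with its 95% interval (bars) in the 3 comparisons, which share groups and are not independent. Klrg1 has the largest value, 3.68 in ST2-high against ST2-low, and Id2 and Id3 lie on opposite sides of 0 in every comparison.

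ST2KO against ST2-low set the libraries labelled ST2KO beside the wild-type Tregs with the least receptor transcript. Id3, Klrg1 and Prdm1 were higher in ST2KO, Id2, Zeb2, Eomes and Bach2 were lower, and Tcf7 and Lef1 did not pass the test. Both sides thus held genes that moved each way, with 1 higher and 1 lower of the 4 naive-like genes and 2 higher and 3 lower of the 5 effector genes. In this comparison 62.3% of all tested genes were called, 33.0% higher and 29.3% lower, and 67.2% had groups that did not overlap, so that 7 of 9 is a share near the background. Of the 9 genes, Klrg1 passed with a change of 2-fold or more, as did 13.5% of all tested genes.

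Tcf7 stood at 327.9, 320.4 and 274.6 CPM in ST2KO, which overlapped ST2-low, with a log2 fold change of 0.01 and a 95% interval from -0.10 to 0.13 (edgeR adjusted p = 0.838). Lef1 stood at 213.1, 192.6 and 177.4 CPM in ST2KO, also overlapping, with a log2 fold change of -0.07 and a 95% interval from -0.19 to 0.05 (edgeR adjusted p = 0.285). The Lef1 call depended on 1 library, since without ST2KO replicate 1 it passed as lower (log2 fold change -0.15, edgeR adjusted p = 0.0447). Bach2 stood at 278.9, 274.7 and 246.8 CPM in ST2KO, just under the lowest ST2-low library. Its log2 fold change was -0.14 ± 0.05 (edgeR adjusted p = 0.0238), and the call was lost without ST2-low replicate 3 (edgeR adjusted p = 0.0724), without ST2KO replicate 3 (0.166) and with upper-quartile factors (0.255). B cell markers summed to 78.7 to 101.8 CPM in ST2KO, with 5 of 8 tested markers lower than in ST2-low, and their part in the Bach2 value was not tested.

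Id3 was higher in ST2KO than in any wild-type library, at 18.6, 18.5 and 18.3 CPM. These libraries held 856, 316 and 224 Id3 counts, and their relative spread was smaller than that of any of the 9 genes in any other group (SD of 0.127 CPM, 0.686% of the mean, n = 3). The log2 fold change was 0.56 ± 0.11 (edgeR adjusted p = 3.48e-05). Id2 moved the other way, to 41.7, 38.5 and 44.8 CPM, below every wild-type library (log2 fold change -0.76 ± 0.07, edgeR adjusted p = 2.05e-11).

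Klrg1 stood at 22.3, 16.3 and 28.6 CPM in ST2KO, between the wild-type groups and with the widest relative spread of any gene of the 9 (SD 27.4% of the mean, n = 3). It was 2.87-fold higher than in ST2-low (log2 fold change 1.52 ± 0.23, edgeR adjusted p = 0.000534). ILC2 markers summed to 4.44 to 4.86 CPM in ST2KO, with Il5 at 0. Il17rb was higher than in ST2-low, as Klrg1 was (4.33 ± 0.225 CPM, n = 3, edgeR adjusted p = 0.00099), and Calca was lower (0.098 ± 0.0865 CPM, n = 3, edgeR adjusted p = 0.0012). The part of these cells in the Klrg1 value was not tested. Prdm1 stood at 45.8, 48.0 and 46.0 CPM, also between the wild-type groups and without overlap with either (log2 fold change 0.51 ± 0.07, edgeR adjusted p = 1.26e-07). Plasma cell markers were lower in the same libraries, with 4 of 4 tested markers called and a summed level of 61.2 to 70.9 CPM. Most of that sum was Igj (60.1 ± 4.83 against 96.1 ± 21.95 CPM in ST2-low, n = 3), whose call (edgeR adjusted p = 0.0404) was ended by 10 of 19 alternatives, and as few as 2 of the 4 markers passed in some. The part of plasma cells in the Prdm1 value was not tested.

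Zeb2 stood at 6.97, 5.14 and 5.07 CPM in ST2KO, from 321, 88 and 62 counts, below every wild-type library. It was 1.78-fold lower than in ST2-low (log2 fold change -0.83 ± 0.15, edgeR adjusted p = 1.33e-05). Macrophages and dendritic cells also express Zeb2, and 13 of 13 of their markers had counts in each group. The marker sum was 149.2 to 190.7 CPM in ST2-low, 141.6 to 143.2 CPM in ST2-high and 44.1 to 58.1 CPM in ST2KO. In ST2-high against ST2-low, where Zeb2 was not called, 3 markers were called lower and Itgam was 1.95-fold higher. Of 11 tested markers 9 were lower in ST2KO than in ST2-low, among them Vcam1 (5.76 ± 1.58 against 33.0 ± 5.13 CPM, n = 3) and Mpeg1 (7.55 ± 1.89 against 33.8 ± 4.0 CPM, n = 3). Their part in the Zeb2 value was not tested.

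Eomes stood at 7.47, 5.90 and 5.16 CPM in ST2KO, from 344, 101 and 63 counts, and all 3 lay below the ST2-low libraries (log2 fold change -0.66 ± 0.15, edgeR adjusted p = 0.000248). NK cell markers summed to 9.76 to 12.6 CPM in ST2KO against 17.3 to 18.7 CPM in ST2-low. Of 5 tested markers 2 fell, namely Fcer1g and Tyrobp, adaptor genes that myeloid cells also use. Ncr1, the NK receptor NKp46, stood at 2.30 ± 0.36 against 2.94 ± 0.39 CPM and did not pass (edgeR adjusted p = 0.278). Klrb1c (4.33 ± 0.76 against 4.99 ± 0.99 CPM) and Klra7 (1.03 ± 0.40 against 0.72 ± 0.45 CPM) did not pass either (edgeR adjusted p = 0.466 and 0.392). The part of NK cells in the Eomes value was not tested.

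**Figure D3:**
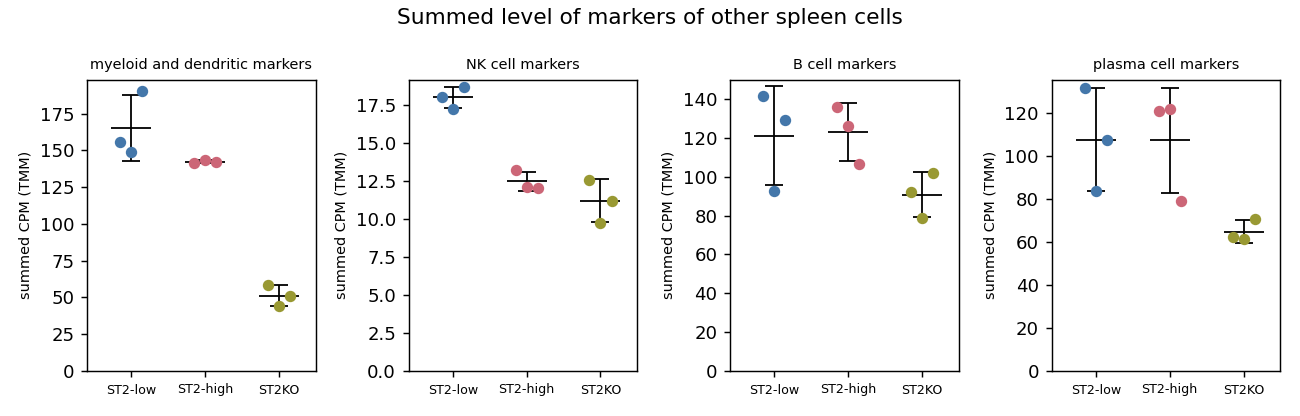
Summed level, in CPM, of the markers of myeloid and dendritic cells, NK cells, B cells and plasma cells in the 3 libraries of each group (points, with mean and SD as bars; linear axes from 0). The myeloid and dendritic sum is 44.1 to 58.1 CPM in ST2KO and at least 141.6 CPM in every wild-type library, while B cell and plasma cell sums overlap between ST2-low and ST2-high.

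ST2KO against ST2-high set the knockout label beside the wild-type Tregs with the most receptor transcript. All 4 naive-like genes were higher in ST2KO, and 4 of the 5 effector genes were lower, with Eomes not passing. Of all tested genes, 31.9% were higher and 32.6% lower in this comparison (64.5% called), and the median log2 fold change was 0.52 over the naive-like side and -1.28 over the effector side, beside 0.02 over all tested genes. The groups did not overlap for 8 of the 9 genes, and for 66.8% of all tested genes. Id2, Id3, Klrg1 and Prdm1 passed with a change of 2-fold or more, as did 15.7% of all tested genes. This comparison shares its samples with both others and adds no independent libraries.

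The sizes differed between the members. Klrg1 was 4.45-fold lower in ST2KO than in ST2-high (log2 fold change -2.15 ± 0.18, edgeR adjusted p = 1.26e-05), Id2 3.33-fold lower (-1.73 ± 0.06, edgeR adjusted p = 3.44e-20) and Prdm1 2.44-fold lower (-1.28 ± 0.06, edgeR adjusted p = 3.03e-17). Id2 therefore changed by more than Prdm1 here, whereas Prdm1 changed by more than Id2 between the wild-type groups; the difference between these differences was not tested. Id3 was 2.12-fold higher in ST2KO (1.08 ± 0.11, edgeR adjusted p = 5.62e-10), more than Bach2 (1.45-fold), Tcf7 (1.43-fold) and Lef1 (1.23-fold). Zeb2 was 1.67-fold lower (-0.74 ± 0.15, edgeR adjusted p = 6.64e-05), beside myeloid and dendritic markers of which 10 of 11 were lower. Eomes had a log2 fold change of -0.31 ± 0.15 (edgeR adjusted p = 0.0658) with overlapping groups, and it passed as lower without ST2-high replicate 1 (edgeR adjusted p = 0.0373) or without ST2KO replicate 1 (0.0121).

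Across the 3 groups the genes followed several orders. Klrg1 and Prdm1 were lowest in ST2-low, intermediate in ST2KO and highest in ST2-high, with no overlap between neighbours. Id2 was lowest in ST2KO, intermediate in ST2-low and highest in ST2-high, and Id3 had the reverse order, again with no overlap between neighbours. Tcf7, Lef1 and Bach2 were lowest in ST2-high, and their ST2-low and ST2KO levels overlapped for Tcf7 and Lef1 and lay close for Bach2. Zeb2 and Eomes were lowest in ST2KO, with overlap between ST2-low and ST2-high for Zeb2 and between ST2-high and ST2KO for Eomes. The groups were free of overlap in all 3 comparisons for 5 of the 9 genes, and for 21.2% of all tested genes. By the test, 5 of the 9 genes were called in all 3 comparisons, against 13.5% of all tested genes.

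Ratios of counts within a library do not depend on the scaling between libraries. The Prdm1 to Bach2 ratio was 0.113, 0.106 and 0.115 in ST2-low, 0.609, 0.599 and 0.635 in ST2-high, and 0.164, 0.175 and 0.186 in ST2KO. Relative to ST2-low it was 5.53-fold higher in ST2-high and 1.58-fold higher in ST2KO, with no overlap among the 3 groups. The ratio of Id2 to Id3 was 5.31, 5.68 and 5.87 in ST2-low, 15.7, 16.3 and 15.9 in ST2-high, and 2.24, 2.09 and 2.44 in ST2KO. This ratio placed ST2KO on the other side of ST2-low, 2.49-fold lower, while ST2-high lay 2.84-fold above ST2-low. The Klrg1 to Tcf7 ratio was 0.0276, 0.0227 and 0.0253 in ST2-low, 0.516, 0.359 and 0.495 in ST2-high, and 0.0681, 0.0509 and 0.104 in ST2KO, in the order of the Prdm1 to Bach2 ratio. A ratio of counts between genes of different length carries no meaning as a level, and the groups' differences are what can be compared.

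**Figure D4:**
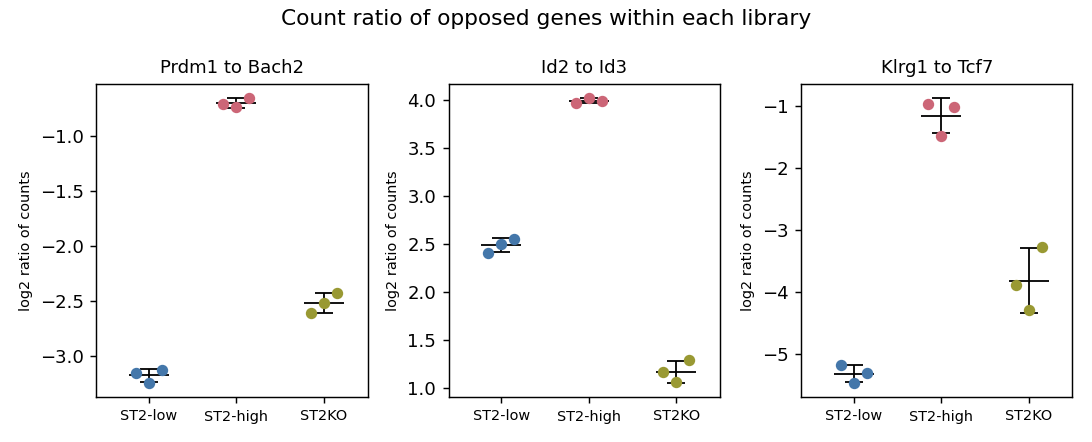
Ratio of the counts of opposed genes within each library on the log2 scale (vertical axes) in ST2-low, ST2-high and ST2KO (points, with mean and SD as bars). ST2KO lies between the wild-type groups for Prdm1 to Bach2 and for Klrg1 to Tcf7, and below both for Id2 to Id3.

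Among the 9 genes themselves, correlations of log2(CPM + 1) over the 9 libraries describe the same orders and mostly reflect the 3 groups. Klrg1 and Prdm1 had r = 0.978, Tcf7 and Lef1 r = 0.945, and Tcf7 and Bach2 r = 0.94. Id2 and Id3 had r = -0.98, and Bach2 had r = -0.969 with Prdm1 and -0.964 with Klrg1. Zeb2 and Eomes had r = 0.86 with each other and r = 0.018 and -0.352 with Klrg1. Of 7963 other genes with at least 10 CPM in a group, those most like Klrg1 were Fgl2 (r = 0.989), which encodes a secreted suppressive molecule, the prostaglandin receptor gene Ptger4 (0.987) and the transcription factor gene Gata3 (0.987). Those most like Prdm1 were Adam8 (0.993), the integrin gene Itgb1 (0.992) and Myadm (0.992). Ndrg1 (0.997), Ubl3 (0.997) and the kinase gene Sgk1 (0.995) were most like Id2, and Txnip (0.995), which encodes an inhibitor of thioredoxin, Zfp318 (0.993) and Rasa2 (0.992) were most like Id3. The actinin gene Actn1 (0.988), Smc4 (0.988) and Ndrg3 (0.98) were most like Tcf7, Ndrg3 (0.973), Mtss1 (0.969) and Sh3bgrl2 (0.959) most like Lef1, and Mtss1 (0.982), Foxp1 (0.973) and St8sia1 (0.973) most like Bach2. Zeb2 was most like Gt(ROSA)26Sor (0.988), Ppp6c (0.983) and Eif4e2 (0.98), and Eomes most like Map4k4 (0.975), Slc6a6 (0.968) and Camta1 (0.967).

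Other genes of the same programmes were listed by role, and the shares of all tested genes called in each comparison, given above, are the background of these counts. The lists were drawn up with results of these libraries known and are no independent evidence of a direction. Of 20 naive and memory-like T cell genes, 14 fell in ST2-high against ST2-low, 1 rose and 5 did not pass, with a median log2 fold change of -0.49. Each of the 14 falls and the 1 rise lost its call in at least 1 of 19 alternatives. The survival gene Bcl2 was 1.64-fold lower, Bcl6 1.60-fold, the chromatin organiser gene Satb1 1.53-fold and Ccr7, the lymph node homing receptor, 1.45-fold. The exception was Il7r, the interleukin-7 receptor gene, 1.37-fold higher. In ST2KO against ST2-low, 10 of these 20 fell and 6 rose, with Ccr7 11.1-fold, Bcl6 6.20-fold, Satb1 2.52-fold and the egress receptor gene S1pr1 2.42-fold lower, although Tcf7 and Lef1 did not pass there. In ST2KO against ST2-high, 9 rose and 8 fell: Bcl2 was 1.78-fold and Bcl11b 1.83-fold higher, as the 4 naive-like members were, while Ccr7 was 7.66-fold and Bcl6 3.88-fold lower.

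Of 20 effector Treg genes, 20 rose in ST2-high against ST2-low, with a median log2 fold change of 0.82. Among them were Fgl2 (3.15-fold), the growth factor gene Areg (2.85-fold), Lgals1 (2.47-fold) and Rora (2.34-fold). In ST2KO against ST2-low, 7 rose and 11 fell, with Ccr8 3.23-fold, Rora 3.05-fold, the interleukin-10 gene Il10 2.66-fold and Tnfrsf4 2.64-fold lower. The 7 that rose, as Klrg1 and Prdm1 did, were Itgae (2.06-fold), Fgl2 (1.76-fold), Entpd1 (1.46-fold), Lgals1 (1.40-fold), Batf (1.38-fold), Gata3 (1.27-fold) and Ikzf3 (1.13-fold). In ST2KO against ST2-high, 18 fell and 1 rose, the exception being the ectonucleotidase gene Entpd1 (1.15-fold higher). Areg was 9.43-fold, Rora 7.15-fold, Tnfrsf4 3.89-fold and Icos 3.74-fold lower there.

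Terminal effector and cytotoxic genes were less uniform. Of 19 tested genes, 8 rose and 1 fell in ST2-high against ST2-low: S100a4 was 4.22-fold, S100a6 3.81-fold, the granzyme gene Gzmb 3.42-fold and Cd44 1.66-fold higher, and Fasl was 1.27-fold lower. In ST2KO against ST2-low, 6 rose and 7 fell, with S100a4 and S100a6 2.14-fold and 1.91-fold higher and Fasl 1.70-fold lower. In ST2KO against ST2-high, 3 rose and 10 fell, among them Gzmb (4.13-fold lower), Havcr2, the gene of the inhibitory receptor TIM-3 (5.78-fold), and Cd44 (1.74-fold).

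The E proteins are the targets of ID2 and ID3, and in ST2-high against ST2-low Tcf12 and Tcf4 were 1.16-fold and 1.28-fold lower, while Tcf3 stood at 71.9 ± 2.60 against 70.5 ± 2.70 CPM (n = 3) and did not pass. In ST2KO against ST2-low, Tcf12 and Tcf4 were 1.23-fold and 1.42-fold lower (edgeR adjusted p = 1.4e-05 and 3.82e-05), and Tcf3 was 1.10-fold higher (edgeR adjusted p = 0.0358, a call that 13 of 19 alternatives ended). In ST2KO against ST2-high, 0 of 4 tested E protein and other Id genes passed with edgeR at an adjusted p under 0.05, with adjusted p from 0.0829 for Tcf3 to 0.374 for Id1. Of 15 cofactors of TCF1 and LEF1 and Wnt genes, 3 rose and 4 fell in ST2-high against ST2-low, with Tcf7l2, a relative of Tcf7, 1.67-fold lower. Axin2, a target of TCF and beta-catenin, rose 2.03-fold in ST2KO against ST2-low and 1.74-fold against ST2-high. Ctnnb1, the gene of beta-catenin, had log2 fold changes of -0.58 in both of these comparisons. Among the 15, 4 rose and 6 fell in each of these 2 comparisons.

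Of 14 partners and relatives of BACH2 and BLIMP-1, 3 rose and 4 fell in ST2-high against ST2-low. Bach1 and Mafk, a relative and a dimer partner of BACH2, were 1.27-fold and 1.24-fold lower, while the histone methyltransferase genes Ezh2 and Ehmt2 were 1.37-fold and 1.22-fold higher. In ST2KO against ST2-low, 10 of the 14 fell and 2 rose. Xbp1, which acts beside BLIMP-1 in secretory cells, was 3.23-fold lower, and the small Maf genes Maff and Mafk were 2.35-fold and 2.12-fold lower. In ST2KO against ST2-high, 10 fell and 1 rose, the exception being Hdac2 (1.17-fold higher).

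Of 10 relatives and partners of ZEB2 and EOMES, 8 fell and 1 rose in ST2KO against ST2-low, and 7 fell and 2 rose in ST2KO against ST2-high. Zeb1 was 1.40-fold and 1.34-fold lower in these comparisons, Smad7 1.94-fold and 1.86-fold lower, and the TGF-beta receptor gene Tgfbr1 1.31-fold and 1.41-fold higher. In ST2-high against ST2-low, Smad3 was 1.49-fold higher and 2 of the 10 fell. Of 12 tested genes of KLRG1 ligands, relatives and phosphatases, 1 rose and 1 fell in that comparison, namely Clec2d (1.21-fold higher) and Klri2 (1.59-fold lower), beside the 12.8-fold rise of Klrg1. The cadherin genes Cdh1 and Cdh2, ligands of KLRG1 named here after their values were seen, had at most 40 counts and 1 count in any library. Cdh1 was called 2.55-fold lower in ST2KO against ST2-high (0.362 ± 0.212 against 0.944 ± 0.414 CPM, n = 3, edgeR adjusted p = 0.0183). That call was ended by 3 of 17 alternatives. Of the same 12 genes, 5 rose and 4 fell in ST2KO against ST2-low, and 4 rose and 4 fell in ST2KO against ST2-high. Among the phosphatases, Ptpn6, the gene of SHP-1, rose 1.85-fold against ST2-low and 1.89-fold against ST2-high. Inpp5d, the gene of SHIP-1, had log2 fold changes of -0.32 and -0.37, and Ptpn11, the gene of SHP-2, fell 1.17-fold and 1.12-fold in these comparisons.

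**Figure D5:**
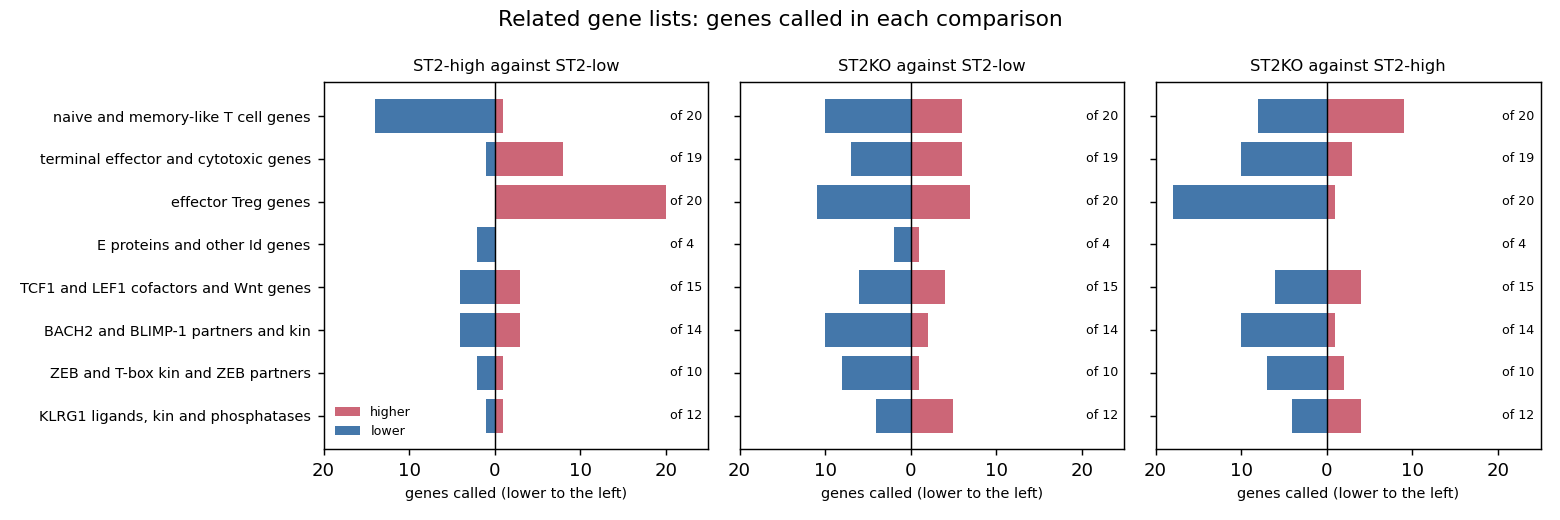
Number of genes called higher (right) and lower (left) in each list of related genes in the 3 comparisons (horizontal axes, genes; the number tested stands at the right of each panel). All 20 effector Treg genes are higher in ST2-high against ST2-low and 18 are lower in ST2KO against ST2-high, while naive and memory-like genes go both ways in both ST2KO comparisons.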

How the data were processed

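Each deposited file holds the raw counts of 1 library by gene symbol, as its whole numbers and header show. How the reads were aligned and counted, the build, the kit and its strandedness: not given in the sources used here. Genes antisense to Tcf7, Lef1, Bach2, Zeb2 and Eomes in GENCODE M21 (GRCm38), such as Bach2os and Zeb2os, have no row in the files, so reads of theirs may sit in the members' counts. In 27 rows a calendar date replaced the symbol, and these (0.182% to 0.206% of a library's counts) were left out.

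Groups came from the genotype labels. Counts were filtered with filterByExpr (minimum count 10, minimum total count 15), scaled with TMM factors and tested with edgeR 4.0.16 (R 4.3.3; robust glmQLFit on all 9 libraries, no covariates), adjusting over 12219 genes at 0.05. Standard errors are the log2 fold change divided by the square root of F. Intervals of fold changes are 95%. The fit was run on simulated data with 200 changed genes. Far more genes were called in each comparison here, so that run does not show how the fit behaves at such shares. No replicates were alike within sampling noise (lowest chi-square per gene, 4.61). Replicate numbers in the titles were checked for pairing, since the labels do not say what they mark. Deviations from group means of same-numbered libraries had r = 0.103, 0.16 and 0.109 between ST2-low and ST2KO. They had r = 0.244, -0.122 and 0.093 between ST2-low and ST2-high, and 0.049, -0.09 and 0.03 between ST2-high and ST2KO. Differently numbered libraries had r from -0.099 to -0.026 between ST2-low and ST2KO, and up to 0.169 between ST2-low and ST2-high. With 3 libraries per group these values cannot settle a pairing. The main fit used none, and the replicate number was a block in 1 alternative. The members and lists were chosen with earlier results of these data known. Genes named were the members, per list and comparison up to 4 (ranked by adjusted p, mean of 1 CPM or more in a group), markers at 0, Il1rl1 and Foxp3 as checks, and per member the 3 genes with the highest Pearson r, leaving out gene models and the like. Il7r, Entpd1, Hdac2, Il13, Calca, Ptpn11, Cdh1 and Cdh2 lie outside this rule and were named after their values were seen. The same holds for Fasl in ST2-high against ST2-low, and for Klrb1c and the effector Treg genes given as higher in ST2KO against ST2-low. A gene that this rule would name among the terminal effector genes is not reported here. Alternatives used DESeq2 1.42.0 and limma 3.58.1.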

Additional observations from a re-analysis of the deposited data

How the results depend on the processing

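For the 27 fold changes of the 9 genes, 19 alternatives each were run: other scaling factors, other tests, other filters, fewer samples, the replicate number as a block, Rn45s left out, each library left out and a minimum fold of 1.5 as the tested limit. None reversed a called direction. Apart from that last limit, the calls that changed were those of Bach2, Lef1 and Eomes given with their results above. Under the tested limit of 1.5-fold, the 4 naive-like genes lost their call in ST2-high against ST2-low, as did Bach2, Id3, Prdm1, Zeb2 and Eomes in ST2KO against ST2-low and Tcf7, Lef1, Bach2 and Zeb2 in ST2KO against ST2-high. The genes called then numbered 347 instead of 3189 in ST2-high against ST2-low, 2111 instead of 7607 in ST2KO against ST2-low, and 2378 instead of 7876 in ST2KO against ST2-high. Leaving out 1 library gave 2478 to 3266, 6952 to 7848 and 7127 to 7891 genes. The count ratios could not change direction when 1 library was left out, since their groups did not overlap in any comparison. The filter of 5 CPM turned the balance in ST2-high against ST2-low to 1456 higher and 1666 lower, from 1872 and 1317. With the replicate block, 3210, 7622 and 7885 genes were called, and no call of the 9 genes changed. The calls of Klri2 and Fasl in ST2-high against ST2-low were ended by 6 of 18 and 5 of 19 alternatives. Counts were low for Zeb2 and Eomes, with 62 and 63 in ST2KO replicate 3.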
